A study of Mus musculus with 6 samples.

Results

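The genes described here are 10 transcriptional regulators, and target genes that report on them, of the SRF and YAP-TEAD pathways: Srf, Myocd, Mkl1, Mkl2, Yap1, Wwtr1, Tead1, Tead3, Ankrd1 and Amotl2. They were chosen by symbol, with earlier results of these data known, and each matched 1 of the 19730 rows of the expression table. Of the 10, 9 reached a mean of 1 FPKM over all libraries (fragments scaled to transcript length and to library depth) and were tested. Myocd did not. RNA-Seq was performed on mesangial cells, which surround and support the capillaries of the kidney glomerulus, taken from mice as primary cultures, in 3 Control libraries and 3 libraries of cells exposed to TGF-β1 at 10 ng/ml for 72 h. Both groups were grown at passage 3 to 6 with 20% serum and 25.5 mM glucose, and no vehicle for the Control cells is stated in the sources used here. Nothing in the labels says that the libraries of a group came from separate cultures, so the p-values measure the spread between these libraries. The comparison asks which of these genes differ in expression after TGF-β1, a secreted protein that drives scarring of the kidney.

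SRF is a DNA-binding protein that sits on a short sequence called the CArG box. It activates contractile and cytoskeletal genes when bound by myocardin (Myocd) or by the myocardin-related factors Mkl1 and Mkl2, which are held in the cytoplasm by monomeric actin and enter the nucleus when actin polymerises. YAP (Yap1) and TAZ (Wwtr1) are coactivators without a DNA-binding domain that act through the TEAD factors, and the Hippo kinases keep them out of the nucleus by phosphorylation. Both pathways read the state of the actin cytoskeleton, and both are controlled largely at the level of protein location, which RNA-Seq does not measure.

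The promoters of 3 of the genes are printed because their annotated starts carry the sequences through which these factors bind. Each line holds the 250 bases before the start in RefSeq (build GRCm38.p6, 5′ to 3′ on the strand of the gene), at chr17:46556163-46556412 (minus strand) for Srf, chr19:36119845-36120094 (minus strand) for Ankrd1 and chr9:102717554-102717803 (plus strand) for Amotl2. Capitals mark CArG boxes in Srf and the TEAD hexamer GGAATG, or its reverse complement CATTCC, in the other two.
Srf: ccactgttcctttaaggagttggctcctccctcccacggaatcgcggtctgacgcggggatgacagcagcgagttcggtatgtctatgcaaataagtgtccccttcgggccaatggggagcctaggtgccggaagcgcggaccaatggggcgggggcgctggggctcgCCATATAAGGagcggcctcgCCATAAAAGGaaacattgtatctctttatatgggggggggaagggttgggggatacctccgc
Ankrd1: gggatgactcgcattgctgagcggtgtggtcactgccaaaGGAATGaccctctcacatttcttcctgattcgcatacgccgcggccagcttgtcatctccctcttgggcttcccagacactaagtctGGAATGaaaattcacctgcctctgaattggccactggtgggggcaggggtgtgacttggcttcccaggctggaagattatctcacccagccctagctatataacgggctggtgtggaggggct
Amotl2: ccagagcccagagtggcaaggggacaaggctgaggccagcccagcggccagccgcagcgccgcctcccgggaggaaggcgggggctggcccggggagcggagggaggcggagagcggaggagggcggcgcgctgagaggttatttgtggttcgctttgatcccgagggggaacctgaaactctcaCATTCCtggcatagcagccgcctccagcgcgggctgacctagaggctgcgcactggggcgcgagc

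Srf held 2 CArG boxes, CCATATAAGG at 82 to 73 bases and CCATAAAAGG at 62 to 53 bases before its start. A CArG box was found in 1.47% of all 32851 promoter windows of this length, and 0.0183% held 2 or more. Ankrd1 held GGAATG at 210 to 205 and at 123 to 118 bases before its start, and Amotl2 held CATTCC at 65 to 60 bases. GGAATG on either strand occurred in 12.6% of all windows, and 2 or more copies in 1.02%. A promoter window was found for 8 of the 10 genes, with 14 annotated starts in all, where Mkl1 and Mkl2 were matched under their current symbols Mrtfa and Mrtfb. GGAATG stood before at least 1 start of 6 of these 8 genes (Mkl2, Yap1, Wwtr1, Tead3, Ankrd1 and Amotl2), against 14.4% of the 27025 genes with a window. A gene with several starts has more windows in which a match can fall. Counted by window, 8 of the 14 held it, against 12.6% of all windows, where the overlapping windows of Wwtr1 hold the same copy. Srf alone of the 8 held a CArG box, and the AP-1 sequence TGANTCA stood before a single start of Mkl2, against 6.75% of all windows. The SMAD sequence GTCTAGAC, present in 0.167% of all windows, was not found in these windows. The 4 motifs were searched on both strands, their matches did not overlap, and a match describes letters and not binding. The Myocd and Tead1 windows were not used here.

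**Figure D1:**
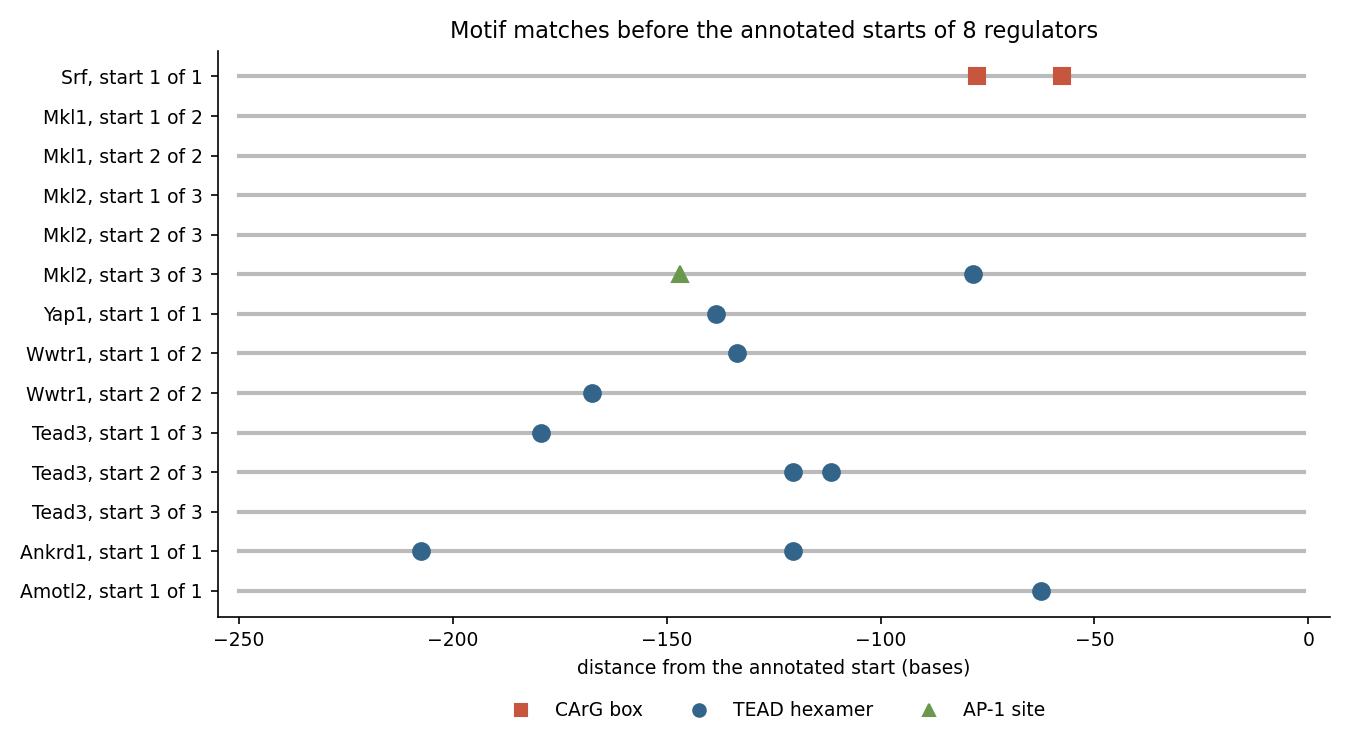
Each grey line is the 250 bases before an annotated start of a gene, with the distance from the start in bases on the horizontal axis, and symbols mark motif matches on either strand. Srf has 2 CArG boxes, Ankrd1 has 2 TEAD hexamers and Amotl2 has 1, and the windows of Mkl1 show none of the motifs.

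Across the table, 48.1% of the 11898 tested rows differed between the groups (limma, adjusted p under 0.05), 24.5% higher and 23.6% lower with TGF-β1, and the median log2 change of all tested rows was -0.02. The libraries held 10.1 to 11.1 M fragments each, as read from the smallest steps between low FPKM values. TGF-β1 replicate 2 stood apart from the other libraries of its group, with lower values the higher the GC content of a gene (Spearman's rank correlation across 10081 genes, which are not independent replicates, -0.394, against 0.009 for Control replicate 2). Of the 8 mesangial markers, 5 were tested, of which Acta2, Serpine2 and Vim were called higher (Vim from 2191 to 3436 FPKM). Pdgfrb was called lower (from 37.5 to 29.2 FPKM, limma adjusted p 0.0396). Gata3 was at a mean of 1.76 FPKM in Control and 1.03 FPKM with TGF-β1 and was not called (limma adjusted p 0.276). Des, Itga8 and Thy1 had group means of at most 0.271 FPKM. The 5 endothelial markers with a row summed to 0.299 to 0.822 FPKM in any library. Macrophage markers summed to 87.0 to 114 FPKM in Control and 9.03 to 11.3 FPKM with TGF-β1, where the receptor Cd14 made up most of the sum. Csf1r fell too, from 6.27 to 0.411 FPKM (-2.36 on the log2 scale, limma adjusted p 8.56e-05), Cd68 was at 2.79 and 2.22 FPKM and was not called, and the leukocyte marker Ptprc had group means of at most 0.0289 FPKM. Podocyte markers summed to 19.7 to 24.9 FPKM in Control and 12.6 to 13.7 FPKM with TGF-β1, and epithelial markers to 1.53 to 2.54 FPKM and 6.57 to 8.78 FPKM. Whether these markers have a part in the results below was not tested. In bulk RNA, fewer cells of a type and less RNA per cell cannot be told apart.

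Of the 9 tested genes, 4 were called higher (Ankrd1, Srf, Tead1 and Wwtr1), 1 was called lower (Amotl2) and 4 were not called (Mkl1, Mkl2, Yap1 and Tead3). Being called in 5 of 9 cases is near the background of 48.1%, so that these counts alone are not a result about the 9 genes. The median log2 change of the 9 was 0.12. Only Ankrd1 changed by at least 1 on the log2 scale, as 13.9% of all tested rows did. The Control and TGF-β1 values did not overlap in 6 of the 9, against 59.4% of all rows (4 higher, against 29.9%, and 2 lower, against 29.5%). FPKM is scaled to transcript length. Which length was used for genes with several transcripts, such as Amotl2, is not stated, so comparisons between genes are approximate. In Control cells Ankrd1 was highest at 162 FPKM, then Amotl2 at 90.3 FPKM, Yap1 (38.5), Wwtr1 (35.9) and Tead1 (26.2). Tead3 (23.0), Mkl1 (21.8), Srf (11.3) and Mkl2 (4.25 FPKM) followed. Replicate values of Yap1 and Wwtr1 overlapped in this order, as did those of Tead1 and Tead3 and of Tead3 and Mkl1, while each other neighbouring pair was separated.

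**Figure D2:**
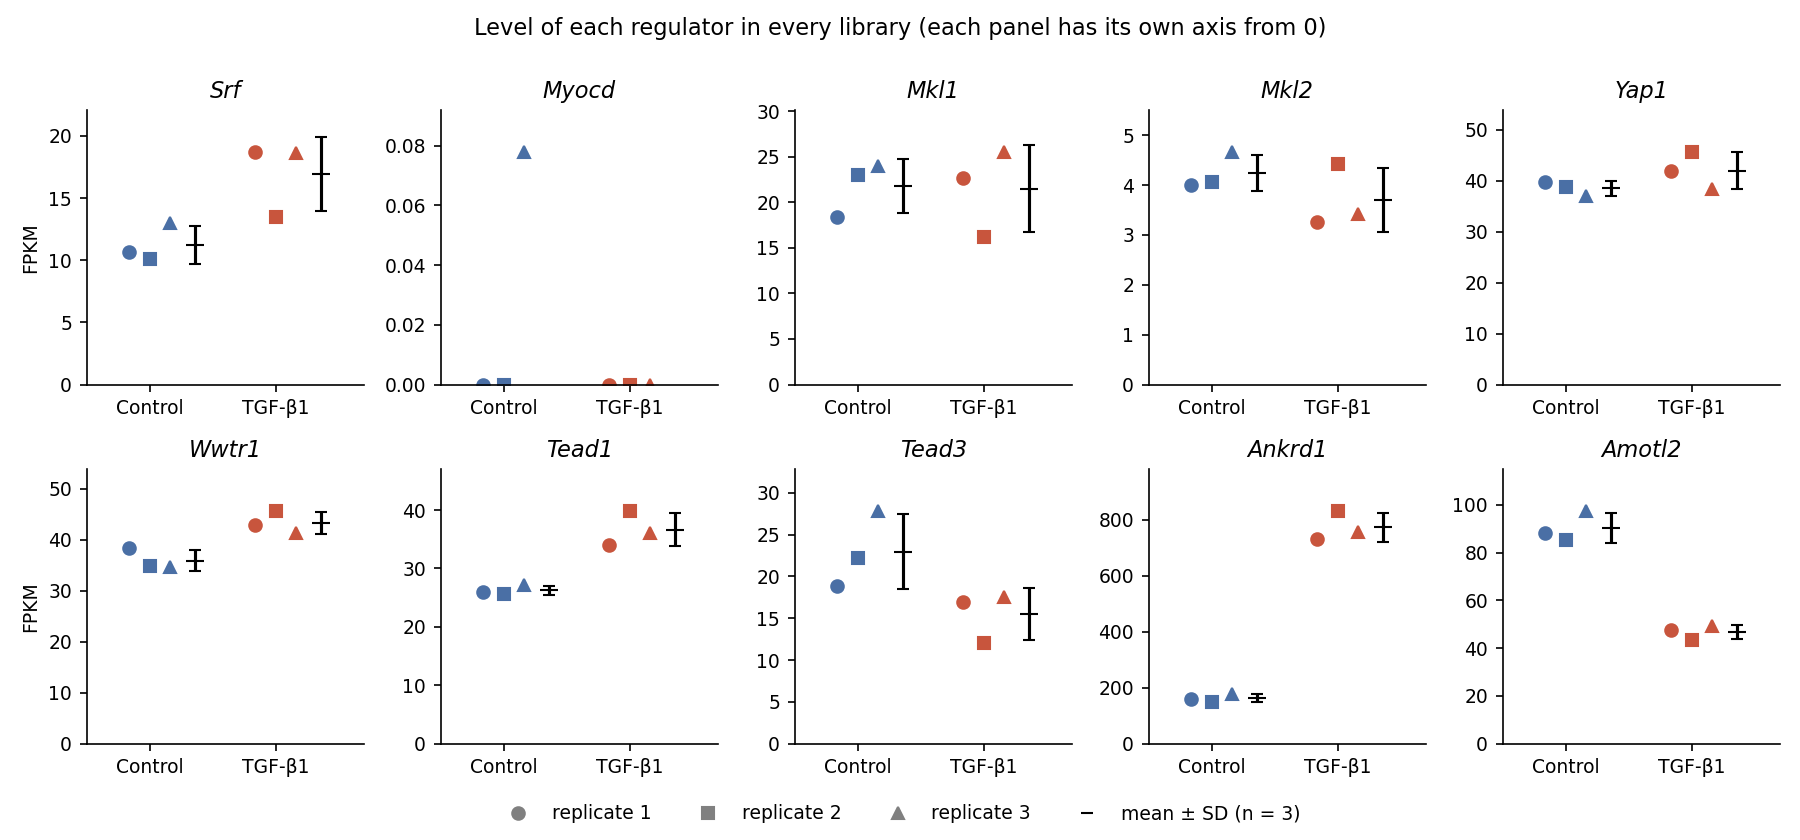
FPKM of each gene in every library (vertical axes, each from 0), with the Control libraries in blue, the TGF-β1 libraries in red, a symbol for each replicate number and black bars for the mean ± SD (n = 3, none drawn for Myocd). Ankrd1 and Amotl2 show the widest separation between groups, from 162 to 773 FPKM and from 90.3 to 46.7 FPKM.

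SRF itself was moderately higher with TGF-β1. Srf (mm9 chromosome 17, 46683788 to 46693111, minus strand, a single annotated transcript) was at 10.7, 10.1 and 13 FPKM in Control replicates 1 to 3 and at 18.7, 13.5 and 18.6 FPKM with TGF-β1. The groups did not overlap, but TGF-β1 replicate 2 lay close to Control replicate 3. The mean of 11.3 ± 1.53 FPKM in Control rose to 16.9 ± 2.97 FPKM (SD, n = 3), which is 0.54 on the log2(FPKM + 1) scale (SE 0.16, limma adjusted p 0.0298). The call was lost without Control replicate 1, Control replicate 2, TGF-β1 replicate 1 or TGF-β1 replicate 3 (limma adjusted p 0.0849, 0.0897, 0.0951 and 0.0917) and with libraries rescaled to the sum of protein-coding rows, which lowered the change to 0.36 (limma adjusted p 0.107) and the median of all genes to -0.19. It held in replicates 1 and 3 alone (log2 change 0.62, limma adjusted p 0.0251). Gm16736, a gene model on the opposite strand that spans the Srf locus, was at no more than 0.351 FPKM in any library.

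The actin-regulated coactivators of SRF did not pass the test. Mkl1 (MRTF-A, chromosome 15, 80842711 to 81021187) was at 18.4, 23.0 and 24.0 FPKM in Control and at 22.7, 16.2 and 25.5 FPKM with TGF-β1. The ranges overlapped, and the log2 change was -0.03 (SE 0.18, limma adjusted p 0.892). Mkl2 (MRTF-B, chromosome 16, 13256574 to 13417622) was at 4.01, 4.07 and 4.66 FPKM in Control and at 3.25, 4.43 and 3.41 FPKM with TGF-β1, and the log2 change was -0.17 (SE 0.13, limma adjusted p 0.322). Mkl1 was the more abundant of the pair in every library, at 83.5 ± 1.43% (Control) and 84.8 ± 5.36% (TGF-β1) of the summed FPKM of the myocardin family (SD, n = 3). The log2 ratio of Mkl1 to Mkl2, taken like all ratios here on FPKM + 1, was 2.11 ± 0.15 in Control and 2.24 ± 0.50 with TGF-β1, and its difference of 0.13 was smaller than the spread between TGF-β1 libraries (two-sided exact permutation p = 0.700). It was 0.42 without TGF-β1 replicate 2, 0.01 without TGF-β1 replicate 1, 0.05 without Control replicate 1, 0.20 without Control replicate 2, -0.04 without TGF-β1 replicate 3 and 0.49 in replicates 1 and 3 alone. Mkl1 touches Sgsm3 on the opposite strand, a gene at 12.4 FPKM in Control and 10.4 FPKM with TGF-β1 that was not called, and reads in the stretch they share cannot be told apart without strand.

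Myocardin was at the limit of detection. Myocd (chromosome 11, 64990063 to 65083491) was listed at 0 in 5 libraries and at 0.0778 FPKM in Control replicate 3, which is about 3.97 fragments at this depth. A count of 3 fragments in its transcript would be 0.0573 to 0.0625 FPKM, and a lower listed value would rest on fewer fragments than that. In the fit without a filter, where 30.5% of 19730 rows were called, its limma adjusted p was 0.566. The log2 ratio of Myocd to Mkl1 was -4.47 in both groups and moved almost only with Mkl1 (two-sided exact permutation p = 1). Mkl1 and Mkl2 transcripts were thus seen in every library and Myocd transcripts in 1 of 6.

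YAP and TAZ were present at similar levels. Yap1 (chromosome 9, 7931999 to 8004596) was at 39.8, 38.7 and 36.9 FPKM in Control and at 41.9, 45.6 and 38.4 FPKM with TGF-β1. Its ranges overlapped, and the log2 change was 0.12 (SE 0.09, limma adjusted p 0.3), or -0.07 with that rescaling. Wwtr1, which encodes TAZ (chromosome 3, 57259571 to 57379832), was at 38.3, 34.9 and 34.6 FPKM in Control and at 42.9, 45.6 and 41.4 FPKM with TGF-β1. Every TGF-β1 library was above every Control library, and the mean rose from 35.9 ± 2.09 to 43.3 ± 2.14 FPKM (log2 change 0.26, SE 0.08, limma adjusted p 0.0346). That call was lost with the replicate number as a block (limma adjusted p 0.0671), with the same rescaling (log2 change 0.07, limma adjusted p 0.458), after removal of the GC and length trend (log2 change 0.13, limma adjusted p 0.206), in replicates 1 and 3 alone (0.172) and without any library but Control replicate 1 (0.0636 to 0.0983). Gm16016, on the opposite strand of Wwtr1, was at 0.519 to 4.85 FPKM.

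The pair was also compared within each library. The log2 ratio of Yap1 to Wwtr1 was 0.05, 0.15 and 0.09 in the Control libraries, against -0.03, 0.00 and -0.11 with TGF-β1, a difference of -0.14 with groups that did not overlap. Its p of 0.1 (exact permutation, two-sided) is the smallest that 3 against 3 libraries allow, and became 0.167 after Benjamini-Hochberg adjustment over the 5 pairs compared. The summed FPKM of the pair went from 74.4 ± 3.42 (Control, SD, n = 3) to 85.3 ± 5.72 (TGF-β1), and the difference came to 0.178 FPKM when libraries were rescaled to the sum of protein-coding rows.

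Of the TEAD factors, which carry YAP and TAZ to DNA, Tead1 rose and Tead3 missed the threshold. Tead1 (chromosome 7, 119822832 to 120050319) was at 26.0, 25.6 and 27.1 FPKM in Control and at 34.1, 39.8 and 36.1 FPKM with TGF-β1. Its mean went up from 26.2 ± 0.760 to 36.7 ± 2.91 FPKM (SD, n = 3, log2 change 0.47, SE 0.08, limma adjusted p 0.00488), and it was called in all 17 alternative fits (limma adjusted p 0.00330 to 0.0483), with the smallest log2 change, 0.28, after rescaling to the sum of protein-coding rows. Tead3 (chromosome 17, 28468616 to 28487750) was at 18.9, 22.2 and 27.8 FPKM in Control and at 17, 12 and 17.6 FPKM with TGF-β1. Every TGF-β1 library was below every Control library, the closest being TGF-β1 replicate 3 at 17.6 FPKM and Control replicate 1 at 18.9 FPKM. The log2 change between the groups was -0.54 (SE 0.19), but the limma adjusted p was 0.0597. With the replicate number as a block it was 0.0478, without Control replicate 1 it was 0.0490, rescaled to the protein-coding sum it was 0.0254, and after removal of the GC and length trend the change was -0.33 (limma adjusted p 0.0706).

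Tead2 was the most abundant TEAD transcript and did not pass the test, at 72.6, 82.1 and 83.9 FPKM in Control and 75.2, 81.8 and 73.7 FPKM with TGF-β1 (log2 change -0.05, limma adjusted p 0.689). Tead4, the least abundant, fell from 4.29, 4.63 and 4.78 FPKM to 2.93, 2.62 and 3.76 FPKM (log2 change -0.45, limma adjusted p 0.0283). That call was kept in 10 of 17 alternative fits. Among others, it was lost without any library but TGF-β1 replicate 3 (0.0530 to 0.0879) and in replicates 1 and 3 alone (0.141). The 4 genes summed to 133 ± 10.9 FPKM in Control and 132 ± 3.63 FPKM with TGF-β1, a difference that came to -19.3 FPKM with the rescaling. Tead1 made up 19.7 ± 1.38% of this sum in Control and 27.7 ± 1.43% with TGF-β1, and Tead3 made up 17.1 ± 2.0% and 11.8 ± 2.59%. The log2 ratio of Tead1 to Tead3 went from 0.20 ± 0.24 to 1.20 ± 0.39, with groups that did not overlap (two-sided exact permutation p = 0.1, the smallest possible, and 0.167 over the 5 pairs). Within replicate numbers the ratio was higher with TGF-β1 in 3 of 3, by 0.52 to 1.45. Tead1 is annotated with 15 transcripts and a second gene model of the same name on the same strand, and the row gives the value under 1 transcript identifier.

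Ankrd1 and Amotl2 are both widely used as readouts of YAP-TEAD activity, and they went in opposite directions. Ankrd1 (chromosome 19, 36186455 to 36194334, minus strand, 9 exons and a single annotated transcript) encodes a nuclear and sarcomeric ankyrin repeat protein of stressed muscle. It was at 159, 149 and 178 FPKM in Control and at 732, 831 and 757 FPKM with TGF-β1. The TGF-β1 mean of 773 ± 51.4 FPKM was 4.77 times the Control mean of 162 ± 14.8 FPKM (SD, n = 3), and the log2 change was 2.25 (SE 0.10, limma adjusted p 2.68e-05). It ranked 140 of 11898 tested rows by increase and was called in all 17 alternative fits, with log2 changes of 2.06 to 2.32.

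Amotl2 (chromosome 9, 102619002 to 102635748, plus strand) encodes an angiomotin-like protein that binds YAP and retains it at cell junctions. It was at 88.2, 85.2 and 97.3 FPKM in Control and at 47.4, 43.4 and 49.2 FPKM with TGF-β1. The TGF-β1 mean of 46.7 ± 2.96 FPKM was 0.517 times the Control mean of 90.3 ± 6.31 FPKM (SD, n = 3), and the log2 change was -0.94 (SE 0.09, limma adjusted p 3.60e-04). It was called in all 17 alternative fits, with log2 changes of -1.13 to -0.71. The table names a transcript of 781 nt with 2 exons, of 14 annotated for the gene, and whether the value is that of the gene or of this transcript is not stated. Within each library the log2 ratio of Ankrd1 to Amotl2, which depends little on how libraries are scaled, was 0.84, 0.80 and 0.87 in the Control libraries, against 3.92, 4.23 and 3.92 with TGF-β1. The difference of 3.19 was far larger than the SD of 0.03 and 0.18 within groups (two-sided exact permutation p = 0.1, the smallest possible, and 0.167 over the 5 pairs).

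**Figure D3:**
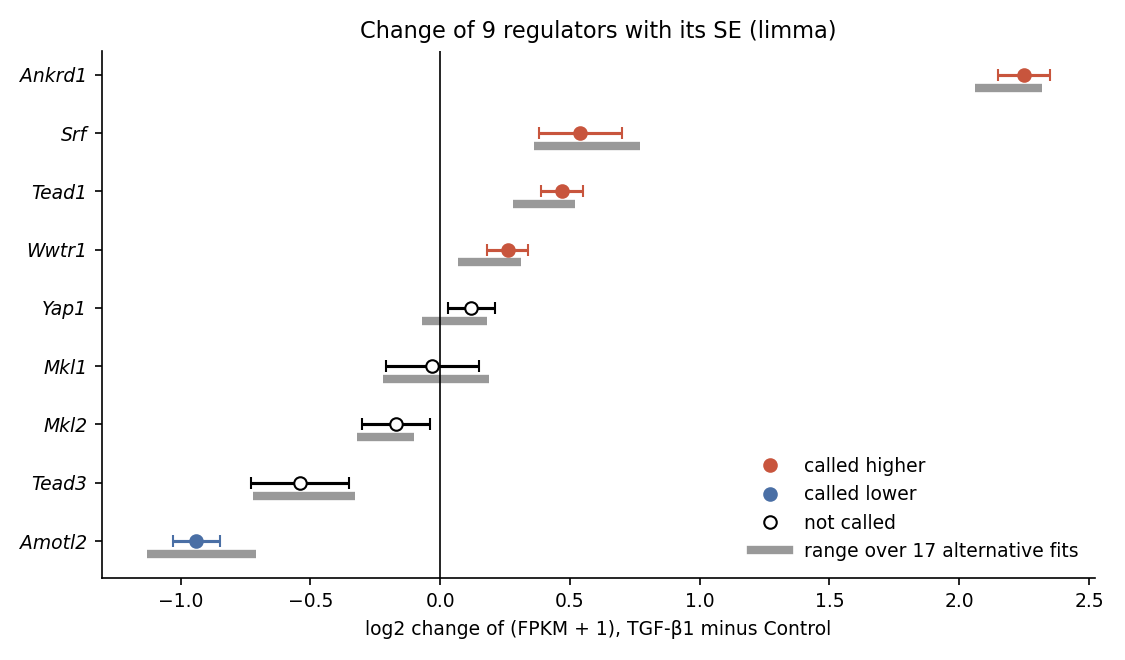
Points give the log2 change (TGF-β1 minus Control) of the 9 tested genes on the log2(FPKM + 1) scale with bars for the SE, filled where called, and grey bars give the range over 17 alternative fits. Ankrd1 at 2.25 and Amotl2 at -0.94 lie outside the other 7, and the grey bars of Mkl1 and Yap1 cross 0.

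The fall of Amotl2 was 1 of 3 changes in the motin family, whose members share the ability to bind YAP. Amot, the founding member, fell from 41.9, 43.4 and 42.2 FPKM in Control to 4.50, 4.19 and 4.95 FPKM with TGF-β1 (log2 change -2.97, limma adjusted p 5.96e-06). Amotl1 rose from 13.8, 17.9 and 12.9 FPKM to 42.2, 48.3 and 43.4 FPKM (log2 change 1.54, limma adjusted p 2.73e-04). In each of the 3 genes the groups did not overlap and the call held in all 17 alternative fits. Summed over the family, FPKM went from 148 ± 4.36 (Control, SD, n = 3) to 95.9 ± 1.72 (TGF-β1). Amot made up 28.8 ± 0.999% of the sum in Control and 4.74 ± 0.358% with TGF-β1, Amotl1 made up 10.1 ± 1.93% and 46.6 ± 3.29%, and Amotl2 made up 61.1 ± 2.86% and 48.7 ± 2.96%. Amotl1 and Amotl2 thus stood at similar FPKM after treatment, where Amotl2 and Amot had been the main transcripts before it. The shares depend on the transcript length behind each FPKM, which for Amotl2 is not stated.

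**Figure D4:**
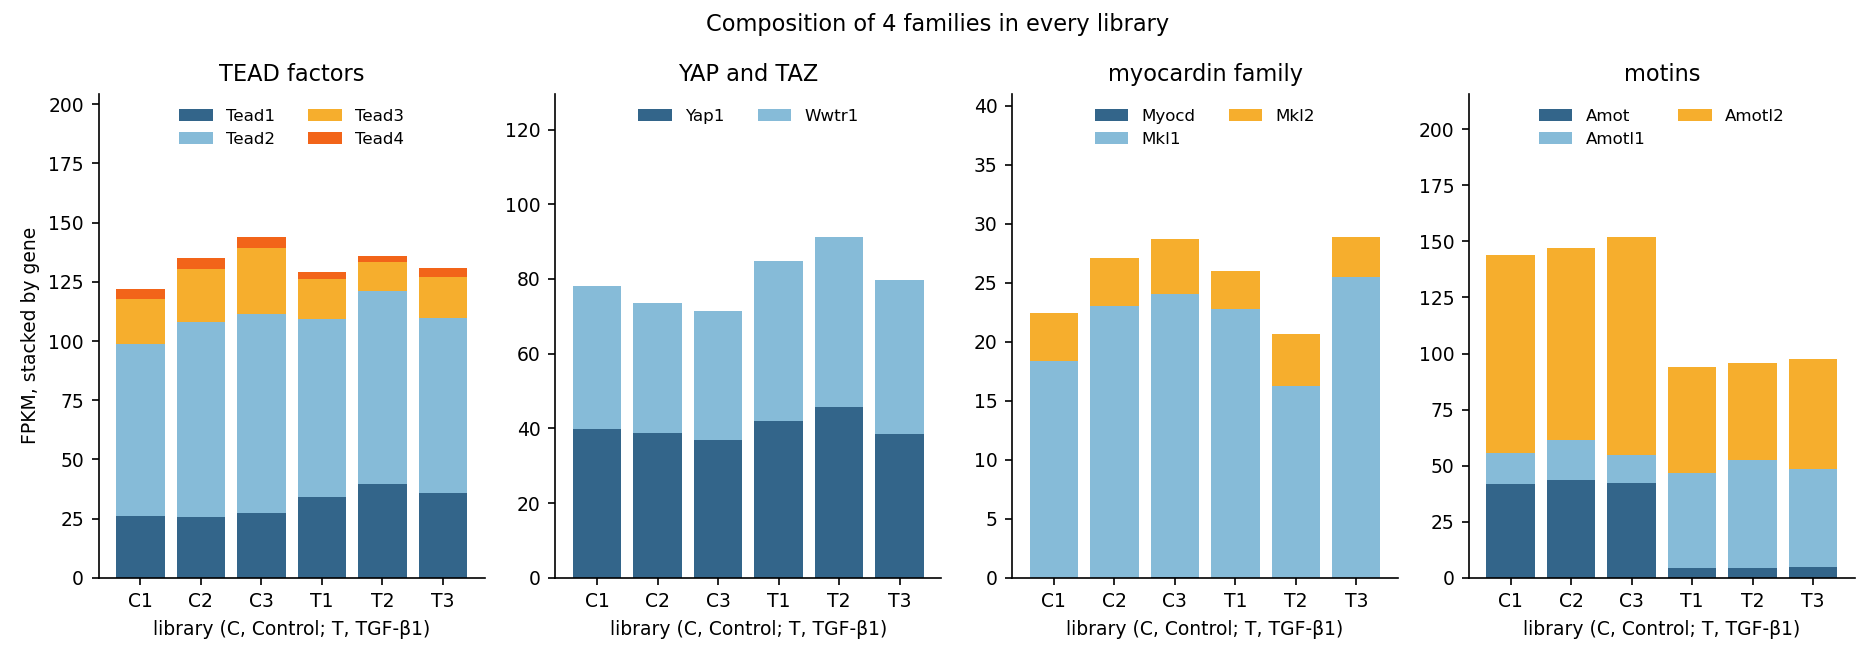
Stacked bars give the FPKM of each gene in every library (C1 to C3, Control; T1 to T3, TGF-β1) for the TEAD factors, YAP and TAZ, the myocardin family and the motins, each on its own axis from 0. The TEAD sum stays near 133 FPKM while the Tead1 share goes from 19.7% to 27.7%, and in the motins the Amot share goes from 28.8% to 4.74% and the Amotl1 share from 10.1% to 46.6%.

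TGF-β1 replicate 2 was an end of the range in all 9 tested genes. The share of all rows with this property was not taken, so the count is not a result about these genes. TGF-β1 replicate 2 was the lowest TGF-β1 library for Srf, Mkl1, Tead3 and Amotl2, whose transcripts have a GC content of 58.0 to 61.6%. For Mkl2, Yap1, Wwtr1, Tead1 and Ankrd1, at 43.9 to 51.0% GC, it was the highest. On the log2 scale it lay below the mean of replicates 1 and 3 by 0.44 in Srf, 0.54 in Mkl1, 0.49 in Tead3 and 0.15 in Amotl2, and above it by 0.11 to 0.33 in the other 5 genes. After the trend with GC content and transcript length had been taken out of every library, which also removes any such trend between the groups, the log2 change was 0.77 for Srf (limma adjusted p 2.73e-04), 2.15 for Ankrd1 (4.06e-06), -0.71 for Amotl2 (0.00295) and 0.14 for Mkl1 (0.389).

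Genes of the surrounding pathways were then counted in lists, which were chosen with earlier results of these data known. Of 19 tested YAP-TEAD target genes (a textbook list that includes Ankrd1 and Amotl2), 11 rose (57.9%, against 24.5% of all rows), 4 fell (21.1%, near the 23.6% of all rows) and 4 were not called, with a median log2 change of 0.46 against -0.02 over all rows. Rescaled to the sum of protein-coding rows, 10 were higher and 6 lower. Ctgf, a matricellular protein, had the largest increase, from 28.8 to 67.6 FPKM in Control to 979 to 1258 FPKM with TGF-β1 (log2 change 4.63, limma adjusted p 9.54e-05). Ctgf is known as a target of TGF-β signalling as well. Cyr61, its close relative, rose from 66.6, 53.9 and 106 FPKM to 230, 231 and 240 FPKM (log2 change 1.67, limma adjusted p 0.00197). The 4 that fell were Amotl2, Arhgef17, F3 (tissue factor) and Ptpn14 (a phosphatase that binds YAP), with log2 changes of -0.94, -0.83, -0.75 and -0.34 (limma adjusted p 3.60e-04, 0.00239, 0.0221 and 0.0201), the last 3 named after their values were seen. The call of F3 was lost without Control replicate 1 or any TGF-β1 replicate (limma adjusted p 0.0545 to 0.0686). That of Ptpn14 was lost without Control replicate 2 or TGF-β1 replicate 1 or 3 (0.0556 to 0.0793) and after removal of the GC and length trend (0.0744). Ptpn14 kept its call in 11 of 17 alternative fits (highest limma adjusted p 0.116). Lats2 was not analysed here.

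The Hippo list holds kinases and upstream regulators, and also Tead2, Tead4, Vgll3 and Vgll4. Of its 24 tested genes, 8 rose and 8 fell, 33.3% each way against 24.5% and 23.6% of all rows. Its median log2 change was -0.01. The even split depended on scaling, since 5 were higher and 10 lower with libraries rescaled to the sum of protein-coding rows. Vgll3, a TEAD cofactor of the vestigial-like family, had the largest increase, from 4.0, 3.54 and 4.81 FPKM to 20.3, 19.6 and 18.9 FPKM (log2 change 2.02, limma adjusted p 5.29e-05), and Amot the largest decrease. The adaptor Sav1, which scaffolds the Hippo kinases, fell from 55.0, 52.4 and 63.5 FPKM to 21.2, 23.8 and 24.2 FPKM (log2 change -1.27, limma adjusted p 2.02e-04). Wwc1 (KIBRA), an upstream activator, fell from 27.5, 30.0 and 33.6 FPKM to 9.30, 4.81 and 8.30 FPKM (log2 change -1.93, limma adjusted p 8.50e-04). Wwc2, a relative of Wwc1, was called higher, with means of 14.0 FPKM in Control and 21.1 FPKM with TGF-β1 (log2 change 0.55, limma adjusted p 0.00267). Sav1, Wwc1 and Wwc2 were singled out after their values were seen. Among the genes of the list called higher, named likewise, were Mob1a, Mob1b, Lats1 and Stk4. Their log2 changes were 0.69, 0.64, 0.46 and 0.42 (limma adjusted p 4.10e-04, 0.0125, 0.0173 and 0.00672). Stk3 was not called (log2 change 0.26, limma adjusted p 0.129). In replicates 1 and 3 alone 8 of the list were called, 4 in each direction, in place of 16.

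Of the targets of SRF with its actin-regulated coactivators, more were called higher than the 24.5% of all rows, and fewer were called lower than the 23.6%. As these lists were chosen with earlier results of these data known, the shares describe the lists and are not an independent test. Of 18 tested cytoskeletal targets, 15 rose (83.3%), 2 fell (11.1%) and 1 was not called, with a median log2 change of 0.94, and of 13 tested contractile targets, 10 rose (76.9%), 2 fell (15.4%) and 1 was not called, with a median of 1.67. Cnn1 (calponin) had the largest increase of the contractile list, from 16.6, 14.9 and 17.1 FPKM to 157, 147 and 156 FPKM (log2 change 3.17, limma adjusted p 4.68e-06). Acta2 (smooth muscle actin) and Tagln (transgelin) rose by 1.96 and 1.78 on the log2 scale. Itga5, the fibronectin receptor subunit, led the cytoskeletal list at 2.65. Mylk (myosin light chain kinase) went against its list, from 24.5, 28.2 and 26.6 FPKM to 2.26, 2.60 and 2.18 FPKM (log2 change -3.04, limma adjusted p 8.14e-06), under a transcript of 3077 nt among 4 annotated. The others that fell were Pgm5 at -0.88, Tuft1 at -0.50 and Fhl2, an SRF-binding LIM protein, at -0.33. Fhl2 kept its call in 11 of 17 alternative fits. Among others, it was lost without Control replicate 1 or any TGF-β1 replicate (limma adjusted p 0.0537 to 0.0883) and with the replicate number as a block (0.0516). Myh11, the smooth muscle myosin whose transcription in smooth muscle depends on myocardin, was at no more than 0.0723 FPKM in any library.

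**Figure D5:**
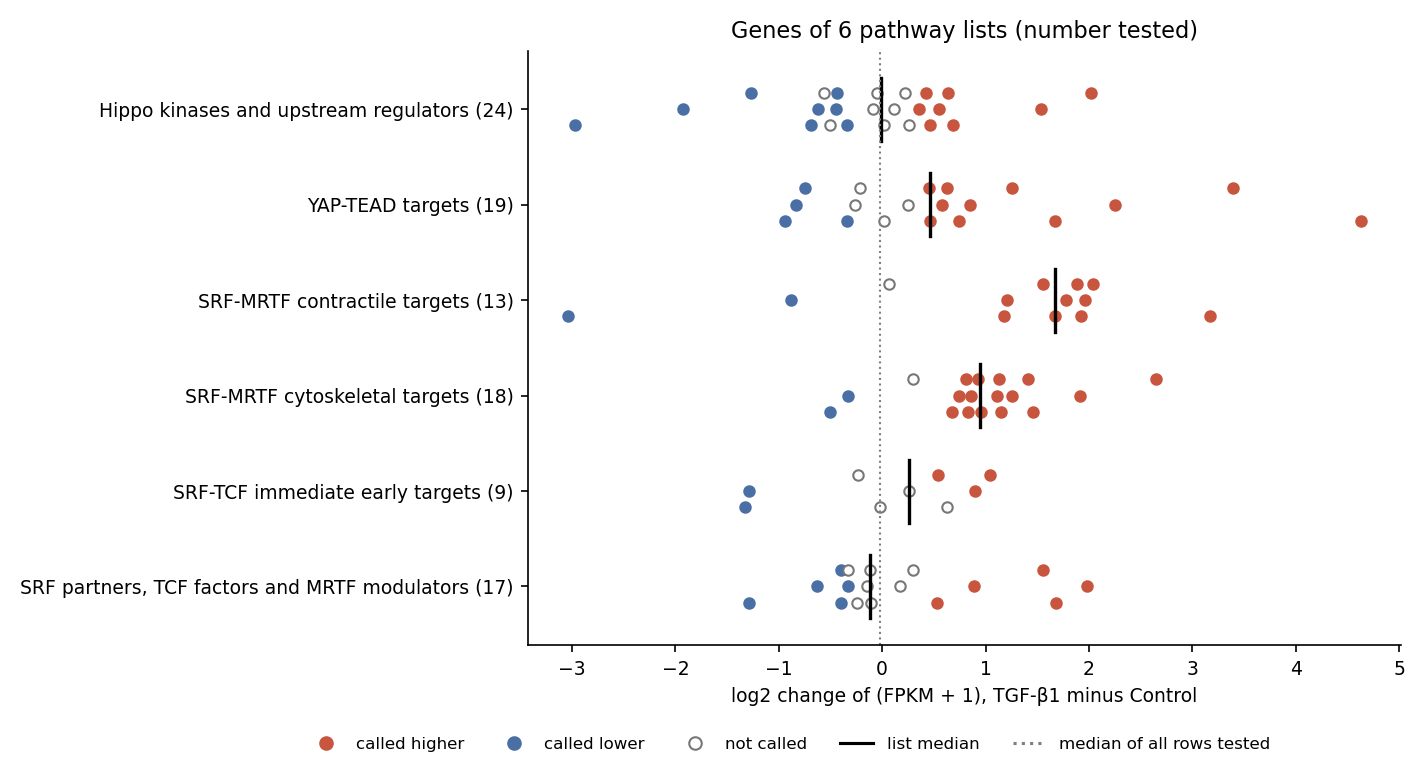
Each point is a tested gene of a pathway list, placed by its log2 change (TGF-β1 minus Control) on the log2(FPKM + 1) scale, with red for called higher, blue for called lower and open for not called, black bars for list medians and a dotted line for the median of all rows. The medians of the contractile and cytoskeletal SRF targets, 1.67 and 0.94, lie to the right, and the Hippo list is spread both ways around -0.01.

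SRF also serves the immediate early genes through the TCF factors, which respond to mitogens and not to actin. Of 9 tested genes of that list, 3 rose (Srf itself, Egr2 and Arc), 2 fell (Fos and Egr1) and 4 were not called, with a median log2 change of 0.26. Those shares, 33.3% and 22.2%, are near the 24.5% and 23.6% of all rows. In replicates 1 and 3 alone 7 were called, 5 of them higher. Junb, named after its values were seen, was at 36.9, 7.88 and 27.4 FPKM in Control against 125, 1.23 and 125 FPKM with TGF-β1 and was not called (limma adjusted p 0.773), with replicate 2 far below the others. Egr1 fell from 42.7, 39.9 and 56.9 FPKM to 19.3, 15.3 and 18.8 FPKM (log2 change -1.33, limma adjusted p 0.00102), and Arc rose by 1.04 from a mean of 0.751 to 2.66 FPKM. Of 17 tested SRF partners, TCF factors and modulators of the myocardin-related factors, 5 rose, 5 fell and 7 were not called, and 29.4% each way is near the 24.5% and 23.6% of all rows. Csrp2, a smooth muscle LIM protein that bridges SRF and GATA factors, had the largest increase at 1.98 (148, 113 and 181 FPKM in Control, 742, 350 and 736 FPKM with TGF-β1), and the histone deacetylase Hdac5 the largest decrease at -1.29. The call of Hdac5 was lost without Control replicate 1 (limma adjusted p 0.0505).

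Ankrd1 is best known from heart muscle, and markers of striated muscle were read beside it. Of 11 with a row, 8 had a mean under 1 FPKM, among them the defining Myh7, Myl2, Myl7, Ckm and Ryr2, each at a group mean of at most 0.156 FPKM. The heart transcription factor Nkx2-5 was present, at 10.3, 1.7 and 11.3 FPKM in Control against 12, 0.522 and 14.5 FPKM with TGF-β1, with replicate 2 lowest in both groups, and was not called (limma adjusted p 0.947). The summed level of the 11 was 8.17 to 20.4 FPKM in Control and 167 to 190 FPKM with TGF-β1. Nearly all of the latter came from Tnnt2, cardiac troponin T, which went from 5.33, 3.42 and 6.48 FPKM to 151, 182 and 156 FPKM (log2 change 4.78, limma adjusted p 2.15e-05) and was singled out after its values were seen. The natriuretic peptide gene Nppb rose from a mean of 1.45 to 5.58 FPKM (limma adjusted p 0.00885).

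The genes whose pattern over the 6 libraries was most like that of Ankrd1, by Euclidean distance of centred log2(FPKM + 1) among 10790 other protein-coding rows, were Cyp51, Pkp1 and Apobec1 (distances 0.169, 0.176 and 0.189). For Amotl2 they were Slc9a3r1, 2210404J11Rik and Rbpms (0.138, 0.145 and 0.147). The distance compares the size of the change between groups on this scale as well as its shape. The ratio of TGF-β1 to Control means was 4.71 for Cyp51, 25.4 for Pkp1 and 8.73 for Apobec1, against 4.77 for Ankrd1. Pkp1 and Apobec1 had Control means of 0.193 and 0.964 FPKM, where the added 1 FPKM shrinks the change.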

How the data were processed

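Total RNA of 3 Control and 3 TGF-β1 libraries was sequenced on an Illumina instrument. Reads were quality-filtered and aligned to mm9 with TopHat (TopHat2 version 2.0.11 per the labels), and the authors deposited FPKM values estimated with Cufflinks for each library. Neither scaling between libraries nor use of strand is stated. All columns were matched to samples by title. The authors tested with a count model (DESeq), which FPKM does not allow.

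The 10 genes and the pathway lists were chosen with earlier results of these data known. Here, limma 3.58.1 in R 4.3.3 (lmFit, eBayes with a mean-variance trend) was run on log2(FPKM + 1) for the 11898 rows whose mean reached 1 FPKM, two-sided, with Benjamini-Hochberg adjustment over all of them, and an adjusted p under 0.05 was called. Fold changes on this scale understate the change of low genes. In simulated data on 11898 rows, 200 rows were changed. Of these, 67.3% of rows changed by 1 log2 unit and 89.2% of those changed by 2 were recovered, and 4.91% of calls were false. That share of changed rows is far below the 48.1% called here, so these rates need not hold for this comparison. Ratios of gene pairs were compared with two-sided exact permutation tests (scipy 1.17.1). Named genes were all 10 members, the largest called increase and decrease of each list, preset textbook targets and paralogs, and the 3 rows most like Ankrd1 and Amotl2. Genes that spell out a count of 5 or fewer, and Sav1, Wwc1, Wwc2, Tnnt2 and Nppb, were chosen after their values were seen. So were Mob1a, Mob1b, Lats1, Stk3, Stk4 and Junb. A preset list of genes is not reported here.

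Depth came from protein-coding genes with a single transcript and FPKM under 0.6, where 99.4 to 99.8% of values were whole multiples of 1 fragment within 0.1 fragments, at an assumed fragment length of 200 nt. The weakest tested member, Mkl2, rests on about 200.0 to 282 fragments per library. Gene positions are 1-based on mm9 (GENCODE M1) and promoters are from RefSeq. Deviations from the group means were correlated across genes at 0.210, 0.418 and 0.152 for libraries of replicate number 1 to 3. Pairs of unlike number gave -0.336 to 0.201, where Control 1 with TGF-β1 3 gave 0.201 and Control 3 with TGF-β1 1 gave 0.127, so that only replicate 2 stood out. A rule that every same-number pair exceeds 0.1 was met. Unlike pairs exceeded 0.1 too, so the rule cannot show that the numbers pair the libraries. The main fit has no block, and the blocked fit is given where it changes a call.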

Additional observations from a re-analysis of the deposited data

How the results depend on the processing

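The fits of the 9 tested genes and the counts were repeated under 17 alternatives, those of Arc under 16, those of Mylk under 15 and the ratios of gene pairs and the family sums under 9, while Myocd and Myh11 had only the fit without a filter. Ankrd1, Tead1 and Amotl2 kept their direction and their call in all 17. The whole table gave 4451 to 5422 changed genes when 1 library was left out, and the members called numbered 3 to 5, with 3 without Control replicate 2, TGF-β1 replicate 1 or TGF-β1 replicate 3, fits that hold fewer samples. Rescaling to the sum of protein-coding rows shifted the median change of all genes by -0.19 and gave 2014 higher and 3951 lower rows, against 2911 and 2810. In that scaling the log2 changes were 0.28 for Tead1 (still called, and 0.47 relative to the shift), and 0.36 for Srf, 0.07 for Wwtr1 and -0.07 for Yap1, none of these 3 called, and -0.72 for Tead3, which was called. Relative to the shift, the last 4 were 0.55, 0.26, 0.12 and -0.53. The summed FPKM difference in that scaling was -19.3 for the TEAD factors and -68.5 for the motins, an alternative chosen after seeing the data. With 1 library left out, log2 changes ran from 0.47 to 0.69 for Srf, from 0.23 to 0.31 for Wwtr1, from -0.66 to -0.37 for Tead3 and from -0.16 to 0.14 for Mkl1, whose sign turned without Control replicate 2 (0.01), Control replicate 3 (0.04) or TGF-β1 replicate 2 (0.14). Mkl1 was at 0.14 and Tead2 at 0.12 after removal of the GC and length trend, and at 0.14 and 0.12 with the replicate block as well, and Wwtr1 was at 0.13 in both. In replicates 1 and 3 alone, Mkl1 was at 0.19 and Wwtr1 at 0.21, and 2 paralogs and 8 Hippo genes were called. Between 2 and 4 paralogs were called with 1 library left out, with 2 without Control replicate 2. With a mean of at least 3 FPKM required, 3 immediate early genes were called. The replicate block ended the calls of Wwtr1 (0.26) and Fhl2 and made that of Tead3 (-0.54), as did a batch term for replicate 2 in Tead3 (-0.54). On its own the block changed no other call among the genes followed through the alternatives, which leave out Mob1a, Mob1b, Lats1, Stk3, Stk4 and Wwc2. The cause of these changes was not tested. Depth limits Myocd, which was at or near 0.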
